A study of Rattus norvegicus with 15 samples.

Results

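To describe how a short course of antibiotics altered RNA of the rat colon in the absence of a transgene, 3 libraries of antibiotic-treated wild-type rats (WT-Ab) were compared with 3 libraries of untreated wild-type rats (WT-C), all at 3 months of age (3 M). These 6 libraries were chosen by their sample labels, from 15 in the whole series. The study used an outbred Sprague Dawley background, and its wild-type (WT) rats were littermates of transgenic (TG) rats. The treated rats drank a cocktail of amoxicillin with clavulanic acid, vancomycin, neomycin, cefuroxime, streptomycin and ampicillin for 2 weeks from 2.5 M of age, in water that also held sucrose. The sources used here do not say whether WT-C rats drank sucrose, so antibiotics and sucrose cannot be told apart. The sex of these rats and their cages are not given either. The other 6 libraries at 3 M, from untreated (TG-C) and antibiotic-treated (TG-Ab) transgenic rats, are used only where their values bear on the genes found in WT rats.

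The RNA came from the mucosa and submucosa of the colon, the MS tissue layer of the study, which the sample labels call colon epithelial. This layer holds the epithelium, which absorbs water and salts and secretes mucus, and under it connective tissue with immune cells, vessels and nerves. Bacteria in the colon ferment fibre to short-chain fatty acids, which serve the epithelial cells as fuel, and bacterial products are sensed by receptors of epithelial and immune cells. Antibiotics given by mouth can lower the number and the diversity of these bacteria. The study reports a lower live bacterial load after its cocktail, but for diversity within samples only a tendency to fall that was not significant. Because each library is a mixture of cells, fewer cells of a type and less RNA per cell cannot be told apart. None of the gene IDs of the tables (0 of 32883) could be paired with a symbol, so the tissue could not be checked by its markers, and genes are described by ID, position and level and not by function.

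WT-Ab 1 stood apart from the other 5 WT libraries. Total counts were 16050385, 17324284 and 18313906 in WT-C 1, 2 and 3 and 15676780, 17322155 and 15606835 in WT-Ab 1, 2 and 3. Levels are given as CPM, a gene's counts scaled to a common library total. On the first principal component of log2 CPM, with 74.2% of the variance, WT-Ab 1 lay at 108.9, WT-Ab 2 at 9.64, WT-Ab 3 at -19.3 and the WT-C libraries between -39.1 and -23.4. Across genes, WT-Ab 1 correlated with WT-Ab 2 at r = 0.881 and with WT-Ab 3 at r = 0.832, whereas WT-Ab 2 and 3 correlated with each other at 0.971 and the WT-C libraries among themselves at 0.975 to 0.983. WT-Ab 1 lay above or below all other WT libraries for 74.0% of the genes tested, and each of the other libraries did so for 14.5 to 35.2%. It was above them for 48.3% and below for 25.7% in CPM, and for 38.3 and 35.3% after TMM scaling. Mitochondrial transcripts took 7.62% of the counts in WT-Ab 1, 11.7 and 11.5% in WT-Ab 2 and 3, and 11.6 to 13.7% in WT-C. With 12.7 ± 1.07% in WT-C and 10.3 ± 2.32% in WT-Ab (SD, n = 3 each), this share gave p = 0.2 in a two-sided exact permutation test, where 3 libraries against 3 cannot give a p below 0.1. Labels and methods do not tie libraries to single rats, and p-values measure the spread between libraries. For this reason main results are given with and without WT-Ab 1, and whether its tissue or its RNA differed was not tested.

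Without WT-Ab 1, 46 genes rose and 141 genes fell in WT-Ab, 187 of 11586 tested (1.61%, 2 libraries against 3). A gene counted as called when its adjusted p was below 0.05 by the quasi-likelihood test of edgeR with Benjamini-Hochberg adjustment. The genes that fell were 1.22% and those that rose 0.397% of the genes tested, so that falls outnumbered rises. The changes were moderate for most genes. The median log2 fold change was -0.88 among the genes that fell (quartiles -1.12 and -0.69, largest fall -2.80) and 0.96 among those that rose (quartiles 0.78 and 1.51, largest rise 4.04). A change of at least 2-fold was found in 49 of the falling and 22 of the rising genes. The median over all genes tested was 0.00 on the same log2 scale.

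With all 6 libraries, 0 of 12193 genes passed the adjusted p in the same edgeR test, whose smallest adjusted p was 0.182, although 1987 genes (16.3%) reached an unadjusted p under 0.05 where 610 are expected if none differs. Of the 187 genes, 38 that rose and 131 that fell without WT-Ab 1 also reached the unadjusted p with it, and the sign of the log2 fold change was the same in 46 of 46 and 139 of 141. On the same 6 libraries other tests did make calls at an adjusted p under 0.05. DESeq2's Wald test called 256 genes higher (2.1% of those tested) and 359 lower (2.94%). These include 35 of the 46 and 121 of the 141. The likelihood ratio test of edgeR called 58 higher (0.476%) and 122 lower (1%), with 27 of the 46 and 89 of the 141. A limma-voom fit with sample quality weights called 416 higher (3.41%) and 659 lower (5.4%). Among these were 46 of the 46 and 139 of the 141. That fit gave WT-Ab 1 a weight of 0.113 and the other libraries 0.488 to 3.08. WT-Ab 1 was above all other WT libraries for 215, 40 and 243 of the genes these tests called higher (48.3% of all genes). It was below them for 230, 91 and 448 of those called lower (25.7% of all genes). The 187 genes were chosen on these libraries without WT-Ab 1, so the shared signs and overlaps were largely set by that choice.

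The count of 187 rested on each of its 5 libraries. It was 27 without WT-C 1, 26 without WT-C 2, 1 without WT-C 3, 36 without WT-Ab 2 and 49 without WT-Ab 3, and in the last 2 of these fits a lone treated library was assumed to vary like the controls. When all 4 groups at 3 M but not WT-Ab 1 entered 1 fit, edgeR's quasi-likelihood test called 0 of 12380 genes (784, or 6.33%, at an unadjusted p under 0.05, with a smallest adjusted p of 0.0938). This 4-group fit kept TG-C 1 and TG-Ab 1, which were also high in genes far higher in WT-Ab 1, and it was not repeated without them. In that fit 37 of the genes that rose and 117 of those that fell reached the unadjusted p, from the same 5 WT libraries that chose them.

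The values of 4 genes show the largest changes under a fixed set of conditions. They are the 2 largest rises and the 2 largest falls by the 6-library log2 fold change among genes called without WT-Ab 1 that also reached an unadjusted p under 0.05 and a 2-fold change with all 6 libraries, with no overlap between the WT groups and 4 CPM or more in the higher group mean. These conditions were met by 21 genes that rose and 69 that fell. In CPM, all 3 WT-Ab libraries lay above all WT-C libraries for 23.1% of all genes tested, and below them for 8.11%, so such separation was common. These shares depend on the scaling, since the factors of TMM, the scaling of the fits, were 0.935 to 0.966 in WT-C and 0.999 to 1.12 in WT-Ab. Positions are those of the authors' Rnor6 annotation, and none of the 4 genes overlaps another annotated gene.

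ENSRNOG00000011598, on the minus strand of chromosome 15 from 106800081 to 106844426, was near the limit of detection in control rats. Its level was 0.810, 0.981 and 0.710 CPM in WT-C 1, 2 and 3, from 13, 17 and 13 counts. In WT-Ab 1, 2 and 3 it was 14.5, 7.39 and 18.3 CPM, from 228, 128 and 286 counts. The lowest treated library was thus well above the highest control, and WT-Ab 1 lay between WT-Ab 2 and 3. Its log2 fold change was 3.84 without WT-Ab 1 (standard error 0.451, edgeR adjusted p = 0.0276) and 3.86 with it (standard error 0.421, edgeR adjusted p = 0.183). TG libraries had 1.02 to 1.05 CPM without and 22.2 to 50.3 CPM with antibiotics.

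ENSRNOG00000036885, on the minus strand of chromosome 2 from 248451547 to 248484100, showed 3.80, 2.83 and 7.10 CPM in WT-C 1, 2 and 3 and 85.6, 45.0 and 85.7 CPM in WT-Ab 1, 2 and 3. The group means were 4.58 ± 2.24 and 72.1 ± 23.5 CPM (SD, n = 3 each). WT-Ab 1 and WT-Ab 3 were almost equal, and no treated library came near the controls. The log2 fold change was 3.74 without WT-Ab 1 (standard error 0.447, edgeR adjusted p = 0.0312) and 3.83 with it (standard error 0.431, edgeR adjusted p = 0.183). In TG rats the gene had 4.98 to 8.07 CPM in controls and 38.9 to 126.8 CPM under antibiotics.

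ENSRNOG00000009734, on the plus strand of chromosome 4 from 61771970 to 61828657, showed the largest fall. Its level was 142.2, 156.1 and 112.3 CPM in WT-C 1, 2 and 3 and 8.68, 15.2 and 26.8 CPM in WT-Ab 1, 2 and 3. WT-Ab 1 had the lowest value, and the 3 treated libraries varied more among themselves, relative to their mean, than the controls. The log2 fold change was -2.80 without WT-Ab 1 (standard error 0.302, edgeR adjusted p = 0.0276) and -3.14 with it (standard error 0.453, edgeR adjusted p = 0.183). TG-C libraries spread from 39.7 to 164.4 CPM, and TG-Ab libraries lay between 12.9 and 15.0 CPM.

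ENSRNOG00000047653, on the minus strand of chromosome 12 from 50390940 to 50404550, showed 9.47, 11.6 and 14.0 CPM in WT-C 1, 2 and 3 and 1.72, 2.02 and 2.24 CPM in WT-Ab 1, 2 and 3. The 3 treated libraries were close to each other, from 27, 35 and 35 counts. Its log2 fold change was -2.55 without WT-Ab 1 (standard error 0.253, edgeR adjusted p = 0.0169) and -2.68 with it (standard error 0.254, edgeR adjusted p = 0.182). The next tested gene on this chromosome, from 50407843 to 50414432 on the other strand, also fell without WT-Ab 1, by 1.82 on the log2 scale from a WT-C mean of 11.3 CPM (log2 fold change with WT-Ab 1 -1.96, edgeR adjusted p = 0.183). The pair lies 3293 bases apart.

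**Figure D1:**
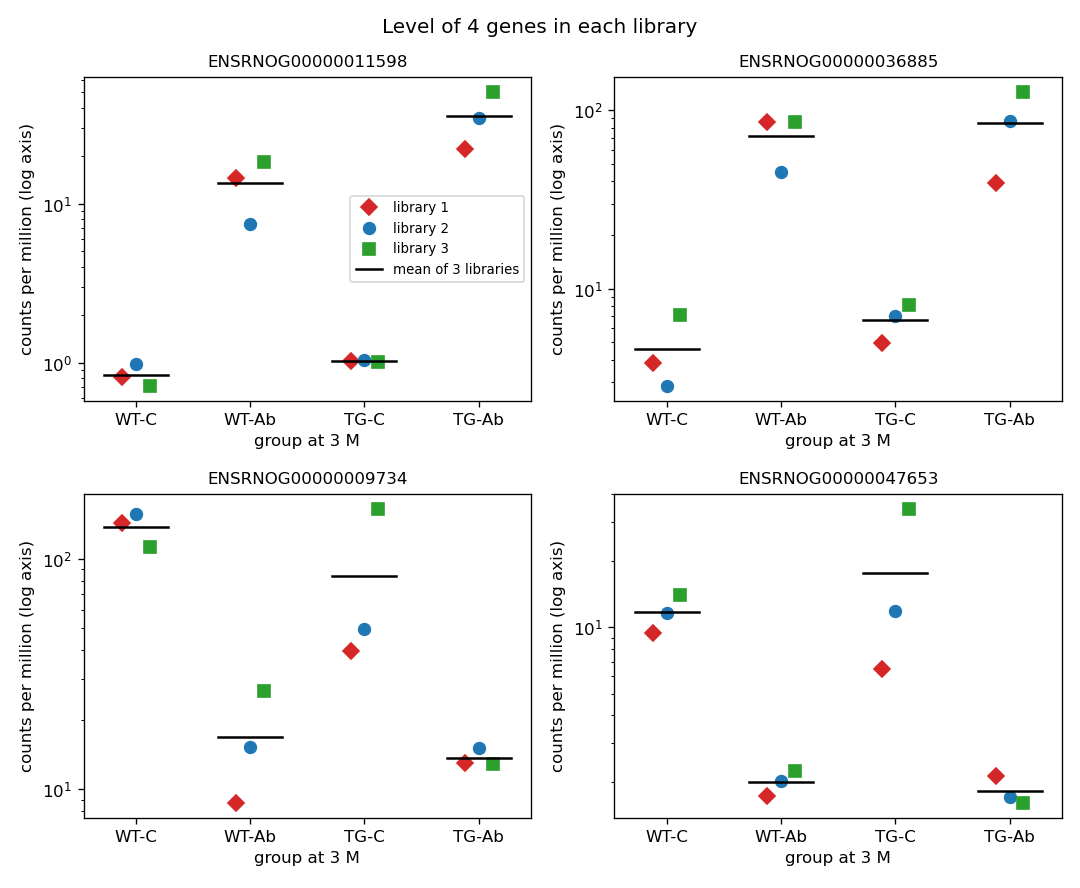
Level in CPM (logarithmic axes) of the 4 genes in each library at 3 M, by genotype and treatment, with red diamonds for library 1, blue circles for library 2, green squares for library 3 and a line for the mean of 3. For each gene the 3 WT-Ab libraries, WT-Ab 1 included, lie on one side of the 3 WT-C libraries, which the rule that chose the genes required.

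Many of the genes that fell were abundant in WT-C, and few of those that rose. WT-C is the higher group for falling genes and the lower for rising genes, so part of this contrast follows from the choice of group. The mean level in WT-C had a median of 89.3 CPM over the 141 genes that fell, 21.3 CPM over the 46 that rose and 30.4 CPM over all genes tested. A WT-C mean of at least 100 CPM was found in 65 of the falling genes (46.1%) and in 4 of the rising genes (8.70%), against 17.9% of all genes tested. Since CPM within a library also depends on a gene's length where whole transcripts were sequenced, these are levels per library and not per length. The median exon length was 2618 bases for genes that fell, 2085 for genes that rose and 2453 for all genes tested, and log2 fold changes without WT-Ab 1 had a Spearman correlation of -0.07 with exon length across genes.

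The 141 genes together took 5.92, 5.26 and 5.56% of all counts in WT-C 1, 2 and 3 and 1.39, 2.38 and 2.63% in WT-Ab 1, 2 and 3. WT-Ab 1, which played no part in choosing them, thus had the lowest share. The 46 genes that rose took 0.143, 0.142 and 0.148% of the counts in WT-C and 0.294, 0.293 and 0.298% in WT-Ab. Here WT-Ab 1 was within the narrow range of the treated libraries. In both sets the other 5 libraries were used to choose the genes, so only the value of WT-Ab 1 is independent of that choice, and it is set against the same controls.

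**Figure D2:**
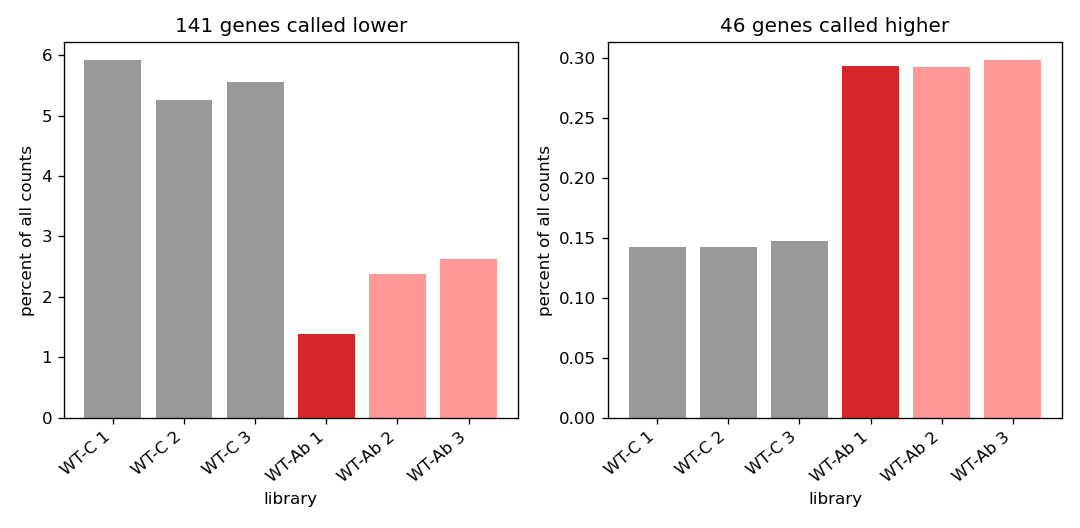
Percent of all counts of each WT library taken by the 141 genes that fell (left) and the 46 genes that rose (right) without WT-Ab 1, with WT-C in grey, WT-Ab 1 in dark red and WT-Ab 2 and 3 in light red. The share of falling genes is 5.26 to 5.92% in WT-C and 1.39 to 2.63% in WT-Ab, and that of rising genes 0.142 to 0.148% and 0.293 to 0.298%.

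A single gene made up much of this share. The most abundant gene that fell lies on the plus strand of chromosome 1 from 214664537 to 214693043. It had 25520, 22300 and 23320 CPM in WT-C 1, 2 and 3, between 2.23 and 2.55% of all counts. In WT-Ab 1, 2 and 3 it had 1405, 6785 and 7909 CPM. WT-Ab 1 was far below the other treated libraries, and these in turn were far below every control. The log2 fold change was -1.79 without WT-Ab 1 (standard error 0.138, edgeR adjusted p = 0.00896) and -2.25 with it (standard error 0.643, edgeR adjusted p = 0.268). TG-C libraries had 5250, 9540 and 17130 CPM and TG-Ab libraries 1760, 1084 and 5976 CPM, so that the genotypes' treated ranges overlapped while the TG-C libraries lay below all WT-C libraries. This gene was picked for its level after its values were seen. Without it, the other 140 genes took 3.03 to 3.36% of the counts in WT-C and 1.25, 1.70 and 1.84% in WT-Ab 1, 2 and 3.

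The level of the 187 genes in WT-Ab 1 can be read against the calls, since the calls did not use that library. Of the 141 genes that fell, 130 (92.2%) were lower in WT-Ab 1 than in every WT-C library, against 30.8% of all genes tested. Of the 46 that rose, 40 (87.0%) were higher there than in every WT-C library, against 55.2% of all genes. The median log2 ratio of WT-Ab 1 to the WT-C mean, in CPM, was -1.18 over the falling and 1.07 over the rising genes. These values depend on the scaling, since TMM, the scaling of the fits, gave WT-Ab 1 a factor of 1.12 and the WT-C libraries 0.935 to 0.966. On the TMM scale, added after seeing the data, 134 of the falling genes (95.0%, against 42.8% of all genes) and 35 of the rising genes (76.1%, against 41.9%) lay beyond WT-C in WT-Ab 1, with median log2 ratios of -1.42 and 0.84. The mean of WT-Ab 2 and 3 gave -0.88 and 0.96 on this scale. Both comparisons used the same WT-C libraries. When DESeq2's Wald test, edgeR's likelihood ratio test or limma-voom with quality weights chose the genes, 89.4, 89.2 and 91.7% of the genes that fell and 82.6, 85.9 and 100% of those that rose lay beyond WT-C in WT-Ab 1, among 846, 582 and 16 genes. These alternatives were chosen after seeing the data.

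A few genes went the other way in WT-Ab 1. It was above every WT-C library for 8 genes that fell in WT-Ab 2 and 3, with log2 ratios to the WT-C mean from 0.08 to 1.79, and below every WT-C library for 3 genes that rose, with log2 ratios from -1.14 to -0.30. A further 3 falling and 3 rising genes were within the WT-C range. Of the 8 genes, TG-C 1 was above all TG libraries numbered 2 and 3 for 7 (against 40.5% of all genes) and TG-Ab 1 for 5 (against 40.4%). Of the 3 rising genes, TG-C 1 was below them for 1 and TG-Ab 1 for 0. For these genes the treated WT libraries did not share a direction.

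**Figure D3:**
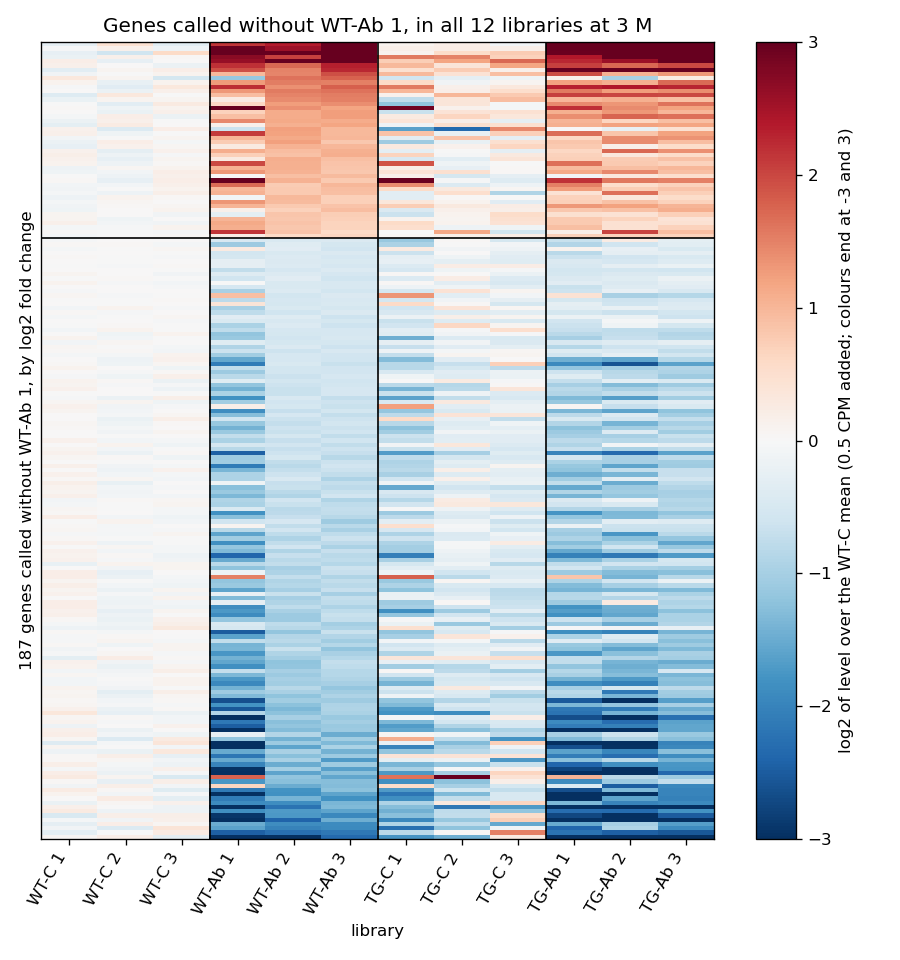
Heat map of the 187 genes called without WT-Ab 1 (rows, ordered by log2 fold change, genes that rose above the line) in the 12 libraries at 3 M (columns), coloured by the log2 of the level over the WT-C mean after adding 0.5 CPM, with colours ending at -3 and 3. WT-Ab 1 has the colour of WT-Ab 2 and 3 in most rows, with single rows of the opposite colour that TG-C 1 often shares.

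Called genes lay on 21 chromosomes and not in 1 region. Between 0.302% of the genes tested on chromosome 16 and 2.77% of those on chromosome X were called, and 0 of 16 mitochondrial genes. Of neighbouring tested genes, 3 pairs were called the same way, each with both genes falling and on opposite strands, and 0 pairs were called opposite ways. How many pairs random placement would give was not tested, so the 3 pairs are a description. Besides the pair on chromosome 12, these were genes on chromosome 6 from 55465782 to 55487714 and from 55497658 to 55524436, whose log2 fold changes were -1.21 and -0.86 without WT-Ab 1 (-1.57 and -0.80 with it) from WT-C means of 2746 and 346.7 CPM. The last pair, on chromosome 7 from 24534615 to 24634097 and from 24647083 to 24668250, had -1.03 and -1.30 (-1.01 and -0.97 with WT-Ab 1) from 54.2 and 24.3 CPM.

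The thresholds that the study gave for TG against WT rats were also used. The study reports a count of genes affected by antibiotics in WT rats without such thresholds, and it is not compared here. At an unadjusted p under 0.05 and at least a 2-fold change with all 6 libraries, 508 genes (4.17%) were higher and 167 (1.37%) lower in WT-Ab. This direction turned without WT-Ab 1, with 113 genes higher (0.975%) and 124 lower (1.07%). It also turned when WT-C 1 was left out (95 higher and 145 lower), when WT-C 2 was (88 and 141) and with all 4 groups in 1 fit (150 and 173). The counts were 199 and 149 without WT-C 3, 688 and 222 without WT-Ab 2 and 1016 and 272 without WT-Ab 3.

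In most of the 508 higher genes WT-Ab 1 had the highest level. It was above all other WT libraries for 461 of them (90.7%), against 48.3% of all genes tested. Without WT-Ab 1, 367 of the 508 could be tested, 89 of these met the same thresholds and 21 passed the adjusted p. The rest of the 508 reached 4 CPM only in WT-Ab 1, so they entered through that library and were highest there by the filter. The median log2 fold change was 2.47 over the 508 genes with all libraries, and 0.81 without WT-Ab 1 over the 367. These medians are over unlike sets of genes and cannot be compared directly. In CPM, WT-Ab 2 and 3 both lay above WT-C for 349 of the 508 (68.7%, against 30.3% of all genes tested). The 508 genes were chosen on these libraries, and their values in them are a description.

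The 167 lower genes changed less when WT-Ab 1 was left out. All 167 were tested without it, 101 met the same thresholds and 69 passed the adjusted p. Their median log2 fold change was -1.29 with and -1.08 without WT-Ab 1. In CPM, WT-Ab 2 and 3 both lay below WT-C for 157 (94.0%, against 10.7% of all genes tested). These genes too were chosen on the same libraries. WT-Ab 1 was below all other WT libraries for 138 (82.6%), against 25.7% of all genes tested.

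**Figure D4:**
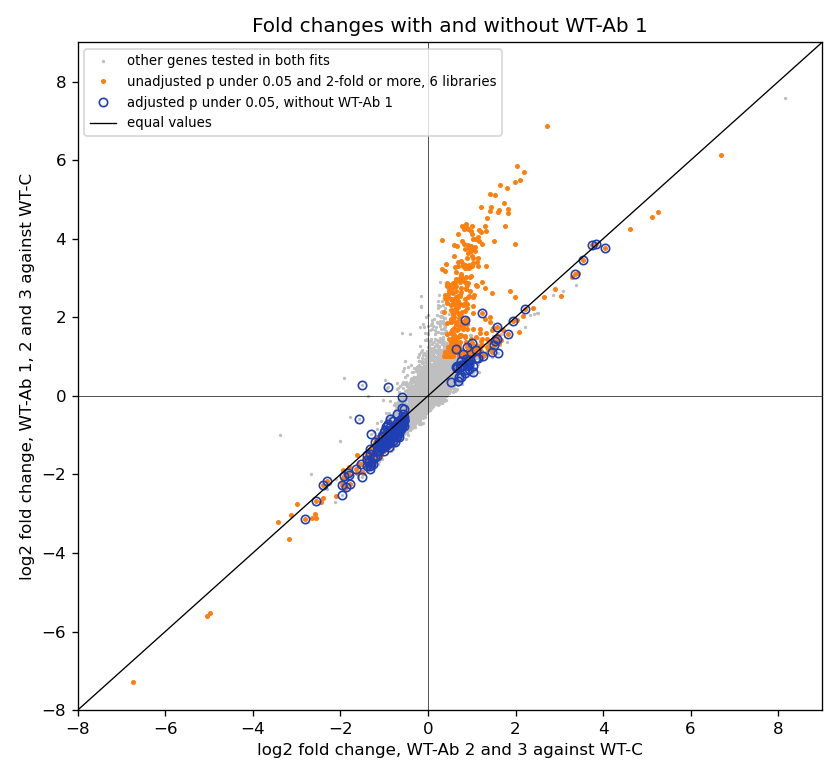
Log2 fold change of WT-Ab against WT-C with all 6 libraries (vertical axis) against that without WT-Ab 1 (horizontal axis) for genes tested in both fits, with orange points for genes at an unadjusted p under 0.05 and 2-fold or more with 6 libraries and blue circles for genes called after leaving out WT-Ab 1. Many orange genes lie far above the line of equal values at log2 fold changes of about 0.5 to 2 without WT-Ab 1, while most of the lower genes lie close to that line.

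The genes far higher in WT-Ab 1 were also high in the TG libraries numbered 1. Of 7603 genes with a mean of at least 20 CPM over the 6 WT libraries, WT-Ab 1 was at least 4-fold above the nearest other WT library for 180 and at least 4-fold below for 18. This mean includes WT-Ab 1, so that genes low elsewhere could enter through that library alone. With the mean taken over the other 5 WT libraries, a choice made after seeing the data, the counts were 42 and 18 of 7310 genes. Of the 180, TG-C 1 was above all TG libraries numbered 2 and 3 for 177 (against 40.5% of all genes) and TG-Ab 1 for 177 (against 40.4%), and of the 42, each was for 40. Of the 18, TG-C 1 was below them for 0 (against 26.8% of all genes) and TG-Ab 1 for 1 (against 14.4%). On chromosome 13, the gene from 82369493 to 82387631 reached 212.6 CPM in WT-Ab 1, 213.0 in TG-C 1 and 101.4 in TG-Ab 1, and between 0.0564 and 7.04 CPM in the other 9 libraries at 3 M. On chromosome 2, the gene from 236233239 to 236345056 reached 128.5, 137.9 and 48.3 CPM in the same 3 libraries and 1.64 to 4.50 CPM in the others. Both genes entered through WT-Ab 1 alone, with means of 1.83 and 2.87 CPM over the other 5 WT libraries. They are among the 180 genes but not among the 42. TG-C 1 is an untreated library of the TG genotype, and no WT-C library showed such levels of these genes. Why these 3 libraries were high was not tested.

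The genes far lower in WT-Ab 1 include a gene also low in the other treated libraries and a gene near the lowest WT-C level in WT-Ab 3. On chromosome 1, the gene from 258074860 to 258139176 showed 229.6, 221.3 and 266.2 CPM in WT-C and 2.30, 45.0 and 86.3 CPM in WT-Ab 1, 2 and 3. It fell without WT-Ab 1 (log2 fold change -1.96, standard error 0.296, edgeR adjusted p = 0.0399) but did not pass with it (log2 fold change -2.52, standard error 1.05, edgeR adjusted p = 0.306). Its TG-Ab libraries had 1.73, 0.572 and 24.9 CPM against 62.4, 107.7 and 397.3 CPM in TG-C. Another on chromosome 1, from 203160323 to 203228318, showed 30.8 CPM in WT-Ab 1 but 626.2 and 1138 CPM in WT-Ab 2 and 3, beside 1146 to 1922 CPM in WT-C. It did not pass without WT-Ab 1 (log2 fold change -0.79, edgeR adjusted p = 0.305) or with it (log2 fold change -1.35, edgeR adjusted p = 0.506). Its TG-C libraries had 187.8, 262.3 and 1583 CPM and its TG-Ab libraries 114.8, 21.8 and 424.5 CPM, which overlap. These 4 genes were taken by a rule on the gap between WT-Ab 1 and the nearest other WT library and serve as a description.

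In TG rats, whose 6 libraries had no part in the calls, most of the 187 genes had the direction seen in WT rats. The log2 fold change of TG-Ab against TG-C was below 0 for 138 of the 140 falling genes that were tested, against 57.8% of all genes, and above 0 for 44 of 46 rising genes, against 42.2%. Its median was -0.71 over the falling and 0.69 over the rising genes. An unadjusted p under 0.05 in the same direction was reached in TG rats by 74 falling genes (52.9%, against 4.24% of all genes) and by 25 rising genes (54.3%, against 3.2%). All 3 TG-Ab libraries were below all TG-C libraries for 64 falling genes (45.7%, against 4.16%) and above them for 28 rising genes (60.9%, against 11%). Without TG-C 1 and TG-Ab 1, which were also high in genes far higher in WT-Ab 1, the direction was the same for 137 of 140 and 43 of 46 genes and the medians were -0.80 and 0.76. An unadjusted p under 0.05 was then reached by 104 falling genes (74.3%, against 10.7% of all genes) and 28 rising genes (60.9%, against 8.22%). Over all genes tested in both genotypes the sign was the same in 67.1%, with or without these 2 TG libraries.

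Most of the 508 genes that were higher with 6 WT libraries did not have that direction in TG rats. A log2 fold change above 0 was found there for 142 of the 497 tested, against 42.2% of the genes tested without WT-Ab 1 and in TG rats. Their median was -0.41, against -0.05 over all genes tested in TG rats. Of the lower genes, 153 of 156 had one below 0, against 57.8%, with a median of -0.98. TG-C 1 was above all TG libraries numbered 2 and 3 for 418 of the 508 genes (82.3%, against 40.5% of all genes) and TG-Ab 1 for 423 (83.3%, against 40.4%). High values in TG-C 1, an untreated library, lower the fold changes of TG-Ab on TG-C, and high values in TG-Ab 1 raise them. Fold changes of the 508 genes without these 2 libraries are not given, so a difference between genotypes cannot be read from these counts.

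Whether the response to antibiotics depended on genotype was tested by the interaction of genotype and antibiotics over all 12 libraries. In edgeR's test 0 of 12457 genes passed (smallest adjusted p 0.999), with 184 (1.48%) at an unadjusted p under 0.05. Without WT-Ab 1, 0 of 12380 passed, with 175 (1.41%) at the unadjusted p. Both shares are below the 0.05 expected if none differs, so a count of 0 does not show that no gene differed. With all 12 libraries, DESeq2's Wald test called 3 genes and edgeR's likelihood ratio test 0. Of the 187 genes, 5 that rose and 8 that fell reached the unadjusted p in edgeR's test of all 12 libraries. Leaving out 1 library gave between 104 genes (without WT-C 3) and 677 (without TG-Ab 1) at the unadjusted p. Without WT-Ab 1, TG-C 1 and TG-Ab 1, a choice made after seeing the data, 0 genes passed the adjusted p and 824 reached the unadjusted p. For ENSRNOG00000011598 the log2 fold change in TG rats exceeded that in WT rats by 1.17 (standard error 0.554), and for ENSRNOG00000036885, ENSRNOG00000009734 and ENSRNOG00000047653 the difference was -0.26 (standard error 0.677), 0.35 (0.809) and -0.75 (0.757). With standard errors of this size, a 2-fold difference between the genotypes was not detectable in these genes. The change was smaller in TG than in WT rats for 95 of the 140 falling and 37 of the 46 rising genes, which were chosen for their size in WT rats.

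**Figure D5:**
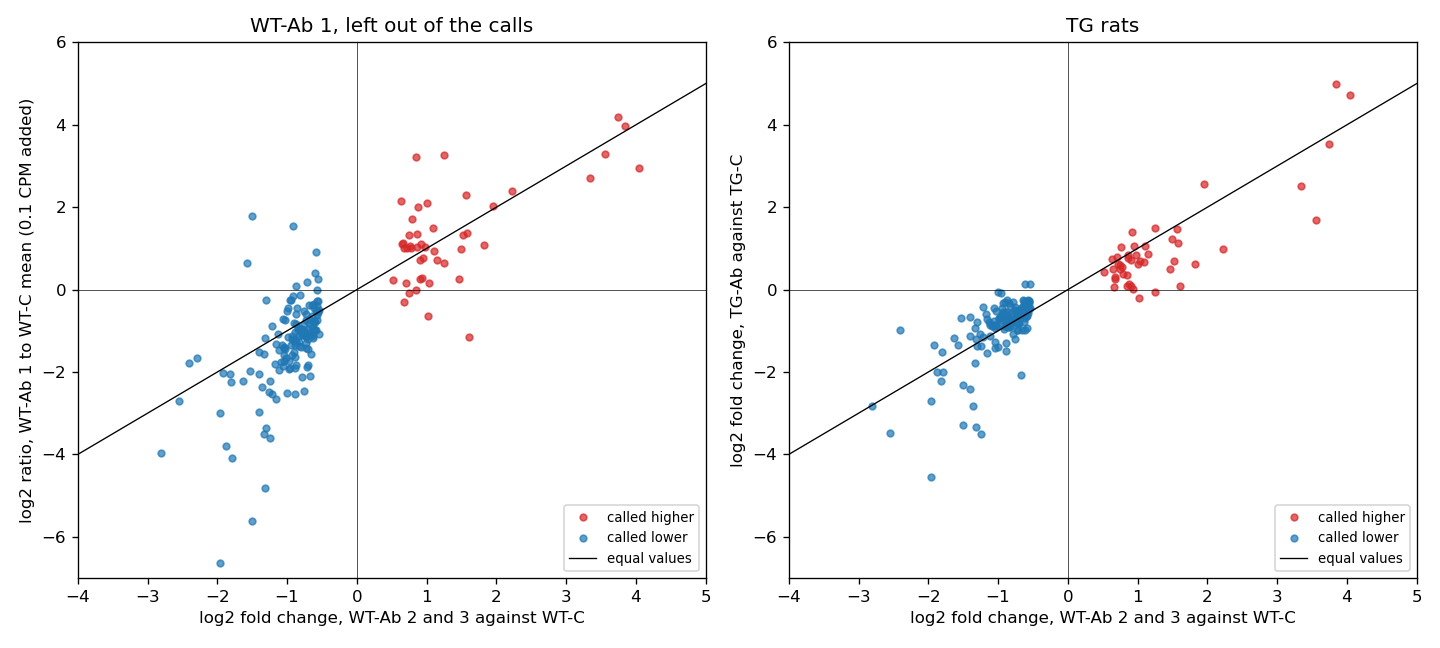
For the 187 genes called without WT-Ab 1 (red, rose; blue, fell), the log2 ratio of WT-Ab 1 to the WT-C mean after adding 0.1 CPM (left) and the log2 fold change of TG-Ab against TG-C (right), each against the log2 fold change of WT-Ab 2 and 3 on WT-C. Most points lie in the quadrants of equal direction in both panels, and the blue points of WT-Ab 1 reach down to -6.64.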

How the data were processed

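Each library has 1 table of raw gene counts, as the authors deposited them. Per the file headers they counted single reads with featureCounts 2.0.0 over exons of 32883 genes of the Rnor6 annotation (strand setting 2, minimum mapping quality 3). Submitters list STAR 2.5.4a, Subread and bcl2fastq 2.19.1 as further tools. The methods name QuantSeq libraries of 3' ends and mRatBN7.2, the labels whole-transcript NEBNext libraries, so whether counts grow with transcript length was not tested. Reads of near-identical genes are lost to the mapping quality filter. Coordinates are those of the authors' tables. Tests used edgeR 4.0.16 in R 4.3.3 on genes that reached 4 CPM in 1 or more libraries of a fit (TMM, robust glmQLFit and glmQLFTest, two-sided, only the groups compared). DESeq2 1.42.0 and limma 3.58.1 served as alternatives. Principal components and correlations used log2 CPM (prior count 2). Scripts were tested on simulated data. Replicates differed by more than sampling noise (mean chi-square per gene at least 23.8). Members, thresholds, the rule for named genes and most alternatives were chosen with earlier results of these data known. With no symbols, the rule's condition on symbols and 584 genes in lists by function or cell type could not be used, and no sequences are shown. The transgene is not reported here.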

Additional observations from a re-analysis of the deposited data

How the results depend on the processing

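Over the 4 genes with IDs, alternative fits of WT rats gave 57 log2 fold changes, 57 with the same direction as reported and 18 past the adjusted p. These genes were chosen on the same libraries for large changes without overlap between the WT groups, so the shared direction was largely set by that choice. The rule also required an adjusted p under 0.05 without WT-Ab 1, which is among these fits. With at least 4 CPM in every library only ENSRNOG00000009734 was tested. The count of 0 at an adjusted p with 6 libraries became 615 with DESeq2's Wald test, 180 with the likelihood ratio test, 1075 with limma-voom and 7 with all 4 groups in 1 fit, and lay between 0 and 187 when each library was left out. At the unadjusted p and 2-fold change, leaving out each library gave 88 to 1016 higher and 124 to 272 lower genes. Higher genes numbered 300 and 202 with at least 4 CPM in at least 3 or in every library, 776 with the likelihood ratio test and 150 with all 4 groups. Lower genes numbered 315 with no filter and 103 with at least 4 CPM in every library. Without WT-Ab 1, 187 became 489 with no filter, 846 with DESeq2, 582 with the likelihood ratio test, 16 with limma-voom, 0 with all 4 groups (784 at an unadjusted p under 0.05 in edgeR's test), and 1 to 49 when a further library was left out. For the interaction DESeq2 called 3 genes and leaving out each library gave 0 to 2. The causes were not tested.

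Deviations of same-numbered libraries of WT-C and WT-Ab correlated at -0.05, 0.21 and -0.15, and those of other pairs at -0.27 to 0.23. With 3 libraries a group, these values cannot decide whether the replicate numbers pair the samples. With the number as a replicate block, 0 genes passed with 6 libraries, 157 genes were higher and 191 lower by unadjusted p with a 2-fold change, and 45 passed without WT-Ab 1. Medians of gene lists were not run, as no symbols could be matched. With 3 libraries a group, small changes were not detectable.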
